A study of Mus musculus with 14 samples.

Results

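The nuclear genes for the oxidative phosphorylation complexes were followed in macrophage-lineage cells sorted from mouse lung after bleomycin injury. A gene was included when the deposited table called it protein coding and its symbol began with Nduf, Uqcr, Atp5 or Cox followed by 4 to 8, or was Cyc1, Sdha, Sdhb, Sdhc or Sdhd. This rule, which uses names and no measured value, took 94 of 43432 genes in the table. They comprise 7 core subunits, 29 accessory subunits and 9 assembly factors of complex I. A further 4 genes were assigned to complex II, 9 to complex III, 20 to complex IV and 16 to complex V. The rule also admits genes whose role differs from their name. Ndufa4 and Ndufa4l2 were counted with complex IV, where the Ndufa4 protein is found, and Atp5sl, an assembly factor despite its symbol, with the complex I assembly factors. Atp5s, which RefSeq names Dmac2l, and Cox7a2l were left with complexes V and IV by symbol alone.

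The RNA-seq libraries came from SiglecF+ CD11c+ lung cells of male 129S1 mice aged 10 to 12 weeks, given bleomycin (3 U/k by the label) or water into the trachea. The cells were separated by surface MHCII, the antigen-presenting class II complex. Each bleomycin group (MHCII-low and MHCII-high cells, at 2 and at 4 weeks) had 3 libraries, and the water-treated controls had 2, both of MHCII-low cells. No group of MHCII-high control cells was analysed here, so MHCII-high cells were compared with MHCII-low cells after bleomycin, and MHCII-low cells with their controls. The labels do not say whether a library came from 1 animal or a pool, or whether replicates were separate animals. The p-values therefore measure the spread between these libraries, which may be technical.

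Oxidative phosphorylation couples the oxidation of nutrients to ATP synthesis in the inner mitochondrial membrane. Complex I takes electrons from NADH and complex II from succinate, complex III passes them to cytochrome c, complex IV hands them to oxygen, and complex V, the ATP synthase, uses the resulting proton gradient. Most subunits are encoded in the nucleus and a few in mitochondrial DNA. Resident alveolar macrophages are known as cells that rely on lipid uptake and mitochondrial oxidation, whereas recruited macrophages can draw more on glycolysis.

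Promoters of nuclear respiratory genes are known for binding sites of the nuclear respiratory factors NRF1 and GABP (an ETS factor). Of the 94 genes, 77 matched a RefSeq promoter entry (build GRCm38.p6). Below are the 250 bases before the RefSeq transcription start of 4 genes, read 5′ to 3′ along the gene's strand. For 3 of them RNA was called lower in MHCII-high cells, as it was for Atp5a1 and Cox4i1, which had no matched entry. Cox6a1 was not called in the main test, and its RNA had the smallest p for MHCII-low cells at 2 weeks against controls. Capitals mark a paired GCGC motif (GCGC, an A, 1 free base and a second GCGC, the core of NRF1 sites), CCGGAAG (an ETS core) and CCAAT, each on either strand. The windows lie at chr10:128083057-128083306 (plus strand) for Atp5b, chr19:4012756-4013005 (minus) for Ndufv1, chr13:74350241-74350490 (minus) for Sdha and chr5:115348959-115349208 (minus) for Cox6a1.
Atp5b: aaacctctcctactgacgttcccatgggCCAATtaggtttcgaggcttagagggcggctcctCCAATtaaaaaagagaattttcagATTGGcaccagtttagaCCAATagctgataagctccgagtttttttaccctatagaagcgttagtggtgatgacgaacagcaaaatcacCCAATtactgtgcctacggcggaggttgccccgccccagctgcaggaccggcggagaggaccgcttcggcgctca
Ndufv1: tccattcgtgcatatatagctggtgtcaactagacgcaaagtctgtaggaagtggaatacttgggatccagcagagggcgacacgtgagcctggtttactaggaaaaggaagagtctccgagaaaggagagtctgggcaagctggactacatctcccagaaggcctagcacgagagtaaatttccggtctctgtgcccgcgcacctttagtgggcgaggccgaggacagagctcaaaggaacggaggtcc
Sdha: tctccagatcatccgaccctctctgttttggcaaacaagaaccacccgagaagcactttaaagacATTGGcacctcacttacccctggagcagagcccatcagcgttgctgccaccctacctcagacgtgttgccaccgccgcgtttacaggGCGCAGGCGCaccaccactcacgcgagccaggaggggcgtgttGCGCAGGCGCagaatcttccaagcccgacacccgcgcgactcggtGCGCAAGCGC
Cox6a1: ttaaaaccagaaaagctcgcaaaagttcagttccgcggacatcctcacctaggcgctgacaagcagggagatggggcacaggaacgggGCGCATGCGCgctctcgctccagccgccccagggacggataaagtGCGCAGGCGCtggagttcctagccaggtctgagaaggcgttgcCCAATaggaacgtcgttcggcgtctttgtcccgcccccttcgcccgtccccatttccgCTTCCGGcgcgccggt

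The 4 windows differed in the motifs they hold. Atp5b had 5 copies of CCAAT and none of the other motifs, Sdha had 3 copies of the paired GCGC motif and 1 of CCAAT, and Cox6a1 had 2 copies of that motif, 1 of CCGGAAG and 1 of CCAAT. Ndufv1 had none of these letter strings. The missing match says only that these letters are not in this window. For the counts that follow, a gene with several RefSeq starts was searched before each, while the windows above use the start nearest the deposited one. Of the 77 matched genes, 14 (18.2%) held the paired GCGC motif on either strand in the 250 bases before at least 1 start, against 4.23% of 27025 RefSeq genes. CCGGAAG was held by 14 (18.2%), against 7.83%. CCAAT was found in 45.5% of the matched genes and 37.5% of all genes. A match is a description of sequence and was not tied to any measurement of binding.

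Values are normalized counts, which the authors scaled between libraries and which do not correct for gene length. Per library, 15106415 to 88059627 reads were recovered from the table. Mitochondrial rRNA (mt-Rnr1 plus mt-Rnr2) took 3.12% to 28.99% of them, and this share was not spread evenly. It was 21.67% and 24.08% in controls. At 2 weeks it was 3.42% to 18.32% in MHCII-low libraries, below both controls, and 22.51% to 26.25% in MHCII-high libraries, without overlap. At 4 weeks it was 3.12% to 23.15% in MHCII-low and 8.12% to 28.99% in MHCII-high libraries. At 2 weeks the share therefore cannot be told apart from the sort group, or from bleomycin in MHCII-low cells. The sort genes were present in every library but differed in level between the groups. The summed MHCII genes ran from 1302 to 12501 normalized counts in the 8 MHCII-low libraries and from 91730 to 221616 in the MHCII-high libraries, and Itgax, which encodes CD11c, from 25185 to 44133 over all 14. Siglecf ran from 6461 to 9551 in the MHCII-low libraries and from 3056 to 4358 in the MHCII-high libraries, which did not overlap. It was lower in MHCII-high cells at both times, by a log2 difference of -0.99 ± 0.108 over both (limma adjusted p of 2.7e-06). Marker sums of cell types differed between the same groups. The 18 resident alveolar macrophage markers, which include Siglecf and Itgax, summed to 747806 to 967355 in MHCII-low cells after bleomycin and 563337 to 684684 in MHCII-high cells. The 17 markers of monocyte-derived or interstitial macrophages summed to 22651 to 45035 and 45355 to 97381, and the 10 dendritic cell markers to 115 to 276 and 1269 to 2771.

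Respiratory genes ranged widely in level within one complex. Per kb of exon, the scale used here to compare genes, the 89 genes that could be tested ranged from 13.1 (Ndufb4) to 3948 (Ndufa4) normalized counts, averaged over the 14 libraries. Their median was 211, against 71.0 for all 17390 genes tested. A gene was tested when 2 or more libraries had 10 or more normalized counts. Complex II stood highest by median at 1380 per kb, from 626 for Sdhb, its iron-sulfur subunit, to 2301 for Sdhc, a membrane anchor. The medians of the other groups were 322 for complex III, 281 for the complex I core, 259 for complex IV, 202 for complex I accessory subunits, 159 for complex V and 86.2 for complex I assembly factors. The highest genes of complex III, complex IV, the complex I accessory subunits, complex V and the assembly factors were Cyc1 (cytochrome c1, 816 per kb), Ndufa4 (3948), Ndufa1 (908), Atp5b (the catalytic beta subunit, 2440) and Ndufaf2 (an assembly factor, 220).

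The low end of that range was shared with genes that have near-identical copies. Subunits of this family are small and have many processed pseudogenes, and reads that match several places can be lost or split in counting. Of the 89 tested genes, 21 had another annotated gene with at least 95% identity over at least 80% of the coding sequence. These 21 had a median of 86.7 per kb and the other 68 a median of 242, and they made up 7 of the 10 lowest genes and 0 of the 20 highest. Their values, among them those of Ndufab1, Ndufb4, Ndufs5, Uqcr11, Uqcrb, Cox7b, Cox7c, Atp5g1, Atp5g2 and Atp5l, are uncertain. The scale per kb has a limit too, since the deposited exon length can far exceed the coding sequence. It was 6883 bases for Ndufab1, with 468 coding, and 4912 for Atp5g1, with 408 coding.

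**Figure D1:**
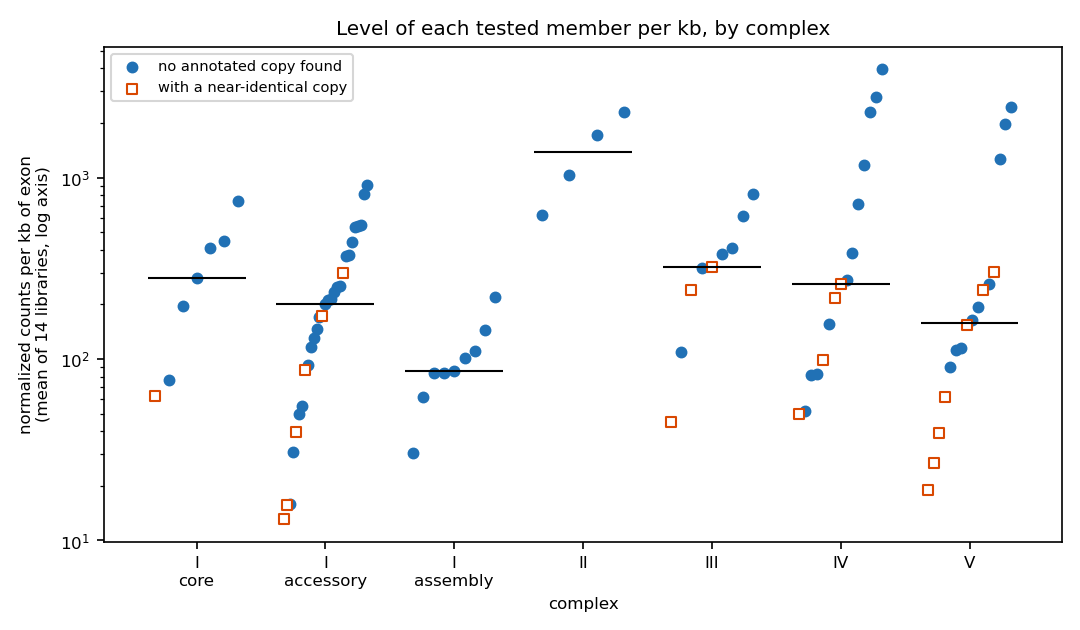
Mean normalized counts per kb of exon over the 14 libraries (log axis) for each of the 89 tested genes, by complex. Horizontal lines are medians, open squares are the 21 genes with a near-identical annotated copy, and the 4 complex II genes lie between 626 and 2301.

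The first comparison asked how MHCII-high cells differ from MHCII-low cells after bleomycin. Averaged over 2 and 4 weeks, 5 of the 89 respiratory genes were lower in MHCII-high cells and 0 were higher (limma on log2 of normalized counts plus 1, Benjamini-Hochberg adjusted p under 0.05 over all genes tested). Among all genes tested 7.21% passed, 2.21% as lower and 5% as higher, so the share of respiratory genes called in either direction, 5.62%, was below that of all genes. The 5 genes were Atp5b and Atp5a1, which form the catalytic head of ATP synthase, Ndufv1, the NADH-binding core subunit of complex I, Sdha, the flavoprotein of complex II, and Cox4i1, a complex IV subunit. Leaving out 1 library gave 2 to 6 calls, while 853 of 17135 to 1399 of 17231 genes were called. It gave 2 without MHCII-low replicate 1 at 2 weeks, and 3 without MHCII-low replicate 1 or 3 at 4 weeks or MHCII-high replicate 3 at 2 weeks. On the recovered reads edgeR called 7, all lower (8.23% of all genes passed), and DESeq2 called 9, of which 2 were higher (12.2%). Among all genes 870 of 1254 limma calls were higher, but 767 of 1401 with TMM scaling and 824 of 1431 in edgeR. In bulk RNA from sorted cells, fewer cells of a type and less RNA per cell cannot be told apart.

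Atp5b (chr10:128083273-128090391, plus strand) is the most abundant complex V gene per kb. Its normalized counts were 11127 and 10531 in controls, 15206, 9699 and 12522 at 2 weeks in MHCII-low cells, and 12943, 11435 and 12048 at 4 weeks. In MHCII-high cells they were 8057, 7454 and 10371 at 2 weeks and 7661, 7804 and 7877 at 4 weeks. The 3 MHCII-high libraries at 4 weeks lay close together and below every MHCII-low library, while at 2 weeks the ranges overlapped through MHCII-low replicate 2 and MHCII-high replicate 3. The log2 difference, high minus low, was -0.58 ± 0.117 (SE) over both times, with a limma adjusted p of 0.00302. It was also the 1 respiratory gene called at a single time: at 4 weeks it was -0.64 ± 0.166 with a limma adjusted p of 0.0419, while 2.5% of all genes passed, 0.535% as lower. On the recovered reads edgeR called 1 respiratory gene at 4 weeks (2.1% of all genes) and DESeq2 called 5 (5.24%). Atp5b's limma call at 4 weeks was lost on leaving out any of 10 of the 14 libraries (limma adjusted p up to 0.141).

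Atp5a1, the alpha subunit that alternates with beta in the ATP synthase head, had 6511 and 5487 normalized counts in controls. MHCII-low cells had 8742, 6280 and 7674 at 2 weeks and 8064, 6462 and 6454 at 4 weeks. MHCII-high cells had 4732, 4709 and 5800, then 5139, 5247 and 5924. Every MHCII-high library lay below every MHCII-low library after bleomycin, and the controls overlapped both. The log2 difference was -0.46 ± 0.115, with a limma adjusted p of 0.0154, and 0.0514 without MHCII-low replicate 1 at 2 weeks.

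Ndufv1 (chr19:4007497-4012806, minus strand) had the largest difference of the 5. Its normalized counts were 744 and 637 in controls, 993, 705 and 948 at 2 weeks in MHCII-low cells, and 1087, 860 and 789 at 4 weeks. MHCII-high cells had 593, 670 and 386 at 2 weeks and 599, 436 and 488 at 4 weeks. Again no MHCII-high library reached the lowest MHCII-low library after bleomycin, and MHCII-high replicate 2 at 2 weeks lay above the lower control. The log2 difference was -0.77 ± 0.182 with a limma adjusted p of 0.0104. Atp5a1 and Ndufv1 were the 2 respiratory genes whose 6 MHCII-high and 6 MHCII-low libraries did not overlap, both lower in MHCII-high. Of all genes tested 0.989% separated in that direction and 2.31% in the other, where no respiratory gene did.

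Sdha and Cox4i1 were nearer the threshold. Sdha (chr13:74322254-74350280, minus strand) had 5981 and 5998 normalized counts in controls, 9122, 7561 and 7557, then 7764, 6770 and 7341 in MHCII-low cells, and 6881, 6257 and 6021, then 4874, 5895 and 5865 in MHCII-high cells. Within each time the MHCII-high libraries were below the MHCII-low ones, but the highest at 2 weeks exceeded the lowest MHCII-low library at 4 weeks. The log2 difference of -0.37 ± 0.103 had a limma adjusted p of 0.0324, and leaving out any of 6 libraries moved it past 0.05, up to 0.0913. Cox4i1 (chr8:120668222-120674207, plus strand) had 918 and 837 normalized counts in controls, 1515, 1081 and 1428, then 1485, 1212 and 1466 in MHCII-low cells, and 881, 1152 and 911, then 1032, 715 and 924 in MHCII-high cells. Its controls lay within the MHCII-high range. The log2 difference of -0.55 ± 0.151 had a limma adjusted p of 0.0295, and leaving out any of 7 libraries moved it past 0.05, up to 0.0861.

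**Figure D2:**
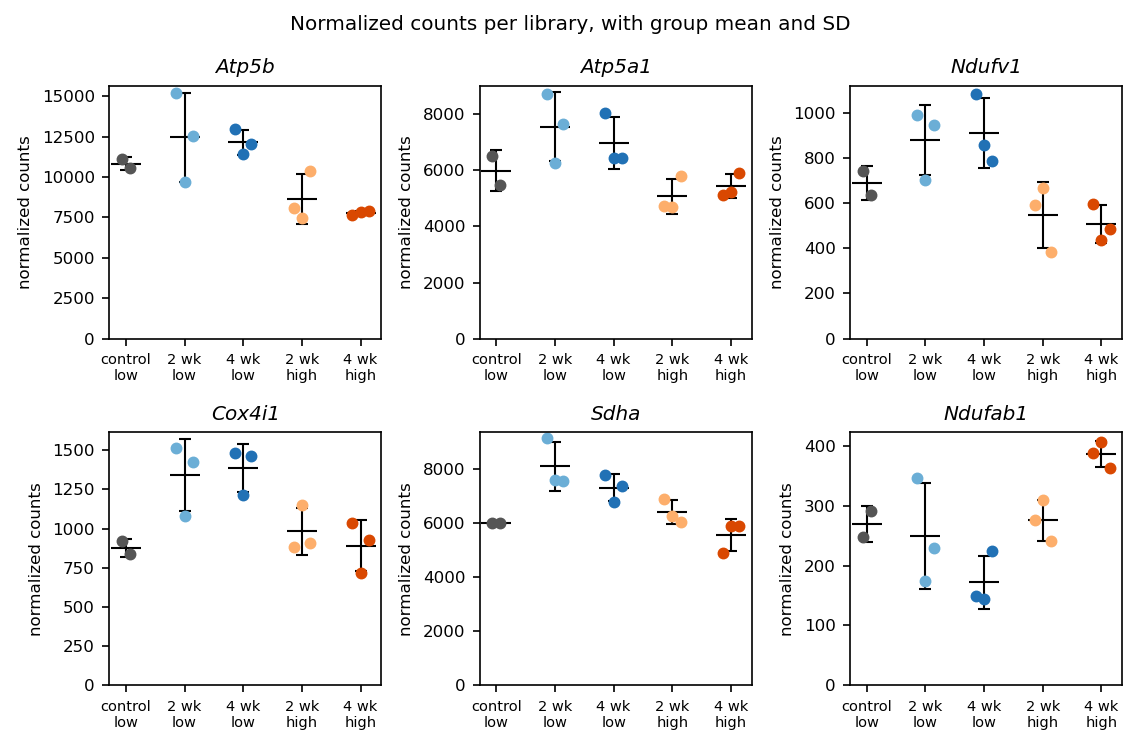
Normalized counts per library of the 5 genes called over both times and of Ndufab1, which was not called, in the 5 groups. Points are libraries, horizontal bars with whiskers are group means and SDs, and all vertical axes start at 0. The Atp5a1 and Ndufv1 points of the MHCII-high groups lie below all MHCII-low points after bleomycin.

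Most other respiratory genes leaned the same way by less than the test could call. Over both times 71 of 89 had a log2 difference below 0, with a median of -0.29 against 0.02 for all genes, of which 48.6% were below 0. The libraries of the 2 times are separate, and 53 respiratory genes (59.6%) were below 0 at both and 11 (12.4%) above 0 at both, against 29.7% and 32.8% of all genes. A shift shared by the respiratory genes of a library moves such counts together, so the genes are not independent of one another. Of the respiratory genes, 15 (16.9%) had an unadjusted limma p under 0.05, fewer in proportion than the 21.2% of all genes. The lean was clearer in genes with more reads: 41 of the 45 genes with a mean of at least 319 normalized counts were below 0, and 30 of the 44 others. The tested genes are short, with a median exon length of 1465 bases against 3261 for all genes. When each library's trend on exon length or on GC content was removed, which moved the median of all genes to -0.25 and -0.22, limma called 15 and 16 respiratory genes, all lower (13.7% and 15.3% of all genes passed, 585 of 2371 and 652 of 2647 calls as higher), and their medians of -0.46 and -0.52 lay 0.21 and 0.29 below those of all genes. The median difference was -0.31 in the 68 genes without a near-identical copy (57 below 0) and -0.14 in the 21 with one (14 below 0).

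By complex, the 7 core subunits of complex I and the 4 subunits of complex II were below 0 at each time. Over both times the median log2 difference was -0.29 for the complex I core, -0.33 for complex II and complex IV, where 13 of 15 were below 0, and -0.28 for complex V, where 15 of 16 were. The accessory subunits of complex I had a median of -0.28 with 21 of 29 below 0. Complex III was the least one-sided of the enzyme complexes, with 5 of 9 below 0 and a median of -0.14. Its smallest p belonged to Uqcrc1, a core protein, with -0.39 ± 0.155 and a limma adjusted p of 0.147. Among the complex I assembly factors 6 of 9 were below 0, with a median of -0.19. No test of one complex against another was made.

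**Figure D3:**
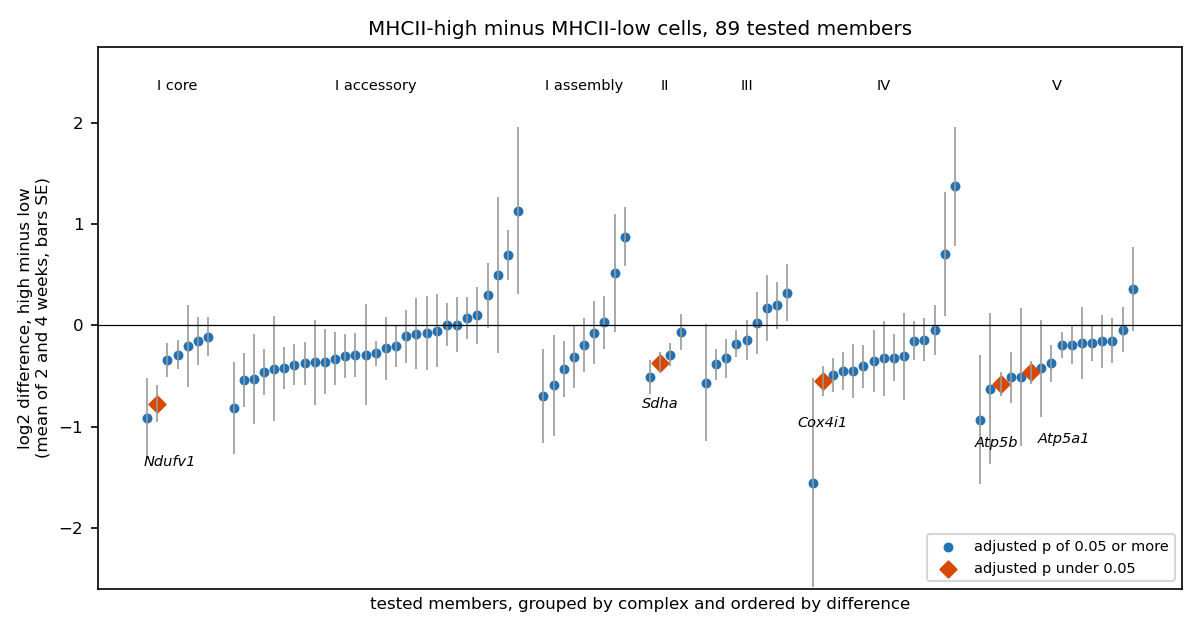
Log2 difference, MHCII-high minus MHCII-low over both times, for the 89 tested genes, grouped by complex and ordered within it. Points are limma estimates, bars their SE and diamonds the 5 genes with an adjusted p under 0.05. In all 71 points lie below 0.

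A few genes went the other way. Ndufab1, the mitochondrial acyl carrier protein that is also a complex I accessory subunit, had 347, 174 and 229 normalized counts in MHCII-low cells at 2 weeks and 148, 144 and 224 at 4 weeks, against 277, 310 and 241, then 389, 408 and 364 in MHCII-high cells. The controls had 248 and 291. At 4 weeks the groups did not overlap, and the log2 difference of 1.19 ± 0.347 had a limma adjusted p of 0.0766. DESeq2 on the recovered reads called it, with an adjusted p of 0.0113. Ndufab1 has 2 near-identical copies. Ndufaf7, a methyltransferase needed for complex I assembly, had 98, 157 and 207 normalized counts in MHCII-low cells at 4 weeks and 504, 278 and 315 in MHCII-high cells, with no overlap. The difference was 1.26 ± 0.411 with a limma adjusted p of 0.124 and a DESeq2 adjusted p of 0.0253. Together with Uqcr11 they were the 3 respiratory genes whose MHCII-high libraries all lay above the MHCII-low ones at 4 weeks (8.26% of all genes did so), while 14 lay wholly below (8.13%). At 2 weeks 2 lay wholly above, Cox6a2 and Ndufs5 (12.9%), and 12 wholly below (8.26%). Uqcr11 has 2 near-identical copies and Ndufs5 has 1. Of the genes wholly below, Ndufa12 at 2 weeks and Ndufb11 at 4 weeks have 1 each.

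At single times the calls were few. At 2 weeks limma called 0 of 89 respiratory genes, while 2.87% of all genes passed. An unadjusted p under 0.05 was found for 10 respiratory genes (11.2%), a smaller share than the 15.4% of all genes. On the recovered reads edgeR called 1 (2.48% of all genes) and DESeq2 called 2 (6.07%). The smallest adjusted p in limma named here was that of Atp5a1, 0.0654, with a log2 difference of -0.57 ± 0.163. The test of the change in the high-minus-low difference from 2 to 4 weeks called 0 respiratory genes in limma, edgeR and DESeq2. Of all genes 0% passed in limma, 0% in edgeR and 0.345% in DESeq2. Respiratory genes with an unadjusted p under 0.05 numbered 0 in limma, 2 in edgeR and 3 in DESeq2. Of all genes 5.68% had one in limma.

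The second comparison asked how MHCII-low cells after bleomycin differ from MHCII-low control cells. Limma called 0 of 89 respiratory genes at 2 weeks (1.91% of all genes passed) and 0 at 4 weeks (0.046%), with 9 and 8 at an unadjusted p under 0.05. The 9 and 8 were 10.1% and 8.99% of the respiratory genes, against 12.7% and 6.12% of all genes. On the recovered reads edgeR called 0 at either time (1.76% and 0.0115% of all genes), and DESeq2 called 1 at 2 weeks (3.82%) and 0 at 4 weeks (0.426%). The estimates leaned upward: 70 of 89 were above 0 at 2 weeks, with a median log2 difference of 0.39 against -0.09 for all genes, and 74 were above 0 at 4 weeks, with a median of 0.30 against -0.06. These 2 comparisons share the same 2 control libraries, so their likeness is not separate evidence. The MHCII-low libraries after bleomycin enter the comparison with MHCII-high cells as well. In the same comparison with controls limma called 10 of 17 monocyte-derived or interstitial macrophage markers higher at 2 weeks and 2 at 4 weeks, and their part in the respiratory genes' values was not tested.

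Complex IV had the largest median of the enzyme complexes in that direction, 0.55 at 2 weeks and 0.53 at 4 weeks, with 12 and 14 of 15 above 0. Cox6a1, a regulatory subunit of complex IV (chr5:115345642-115348981, minus strand), had 915 and 1134 normalized counts in controls, 1929, 1452 and 2531 at 2 weeks in MHCII-low cells, and 2571, 1666 and 1950 at 4 weeks. All 6 were above both controls. The log2 differences were 0.92 ± 0.263 (limma adjusted p of 0.0865) and 0.99 ± 0.263 (limma adjusted p of 0.312), and DESeq2 called the first with an adjusted p of 0.0167. In MHCII-high cells its counts were 1308, 988 and 1594, then 1324, 1625 and 1753, overlapping both the controls and the MHCII-low cells after bleomycin. The difference between high and low was -0.49 ± 0.166 with a limma adjusted p of 0.0801. In complex II all 4 subunits were above 0 at both times, with medians of 0.46 and 0.36, and none passed the test. Sdhc had 5439 and 6354 normalized counts in controls and 7077 to 10020 in the 6 MHCII-low libraries after bleomycin, with 0.58 ± 0.182 at 4 weeks and a limma adjusted p of 0.548.

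Counted by libraries, 17 of 89 respiratory genes lay wholly above the 2 controls in the 6 MHCII-low libraries after bleomycin, against 5.85% of all genes, and 2 lay wholly below, against 9.31%. The 17 included Ndufs6, Ndufa13, Sdha, Sdhb, Sdhc, Cox4i1 and Cox6a1, and the 2 were Atp5g1 and Atp5g2. With controls and bleomycin MHCII-low libraries pooled, 0 respiratory genes separated from the MHCII-high libraries in either direction (0.518% of all genes lower and 1.79% higher).

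**Figure D4:**
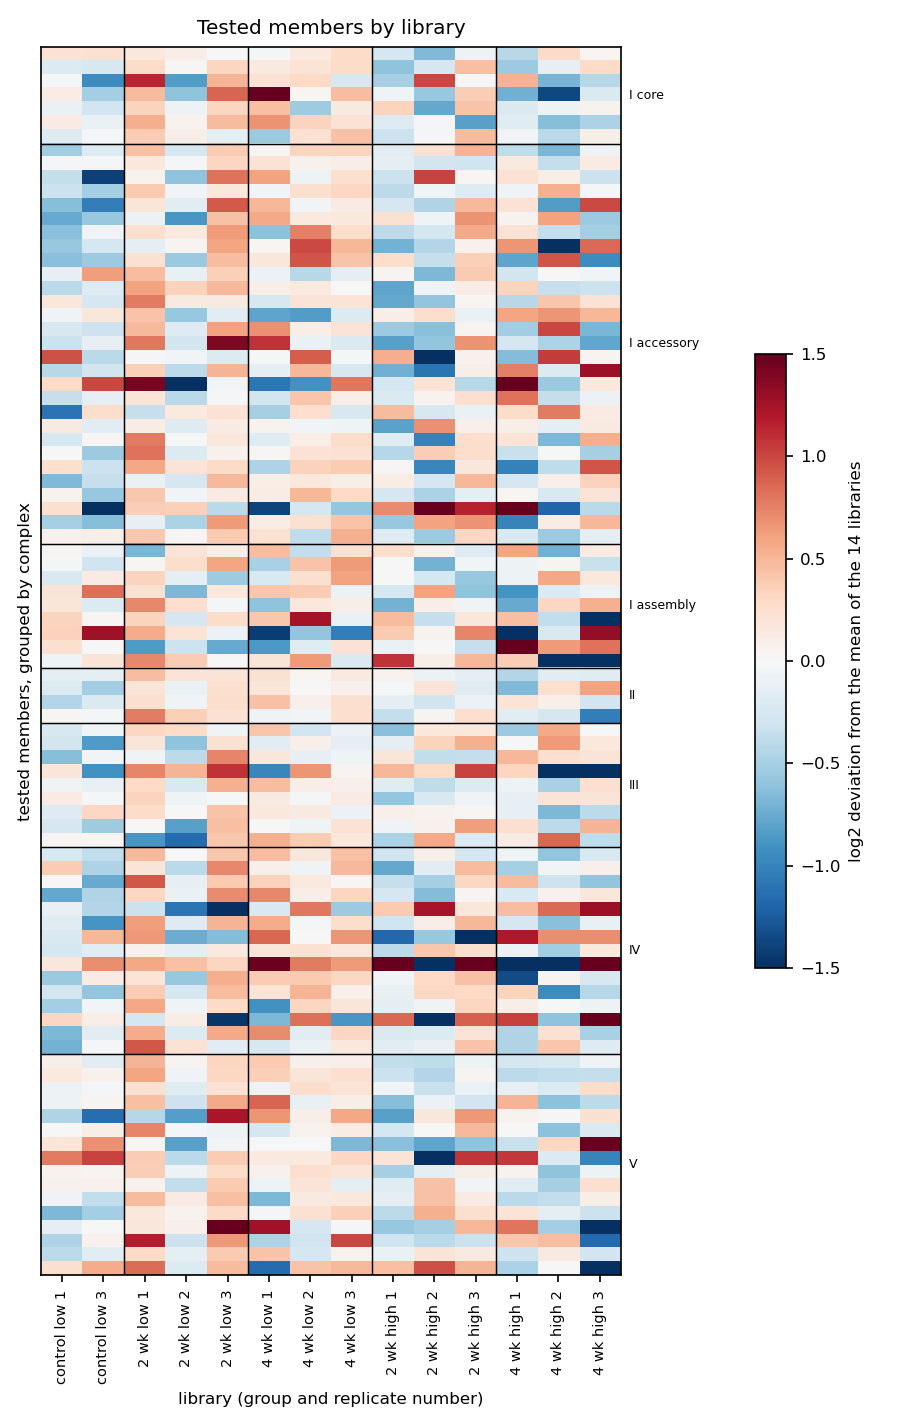
Log2 deviation of each tested gene from its mean over the 14 libraries, with libraries in columns by group and genes in rows by complex; colours end at -1.5 and 1.5. MHCII-low replicates 1 and 3 at 2 weeks are mostly above the mean, with medians of 0.34 and 0.33, while replicate 2 is at -0.11.

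The lean was uneven among replicates, and it is given here beside the mitochondrial rRNA share. At 2 weeks the share and the sort group cannot be told apart, with the share as a covariate or without it. The median deviation of the respiratory genes from their mean over the 14 libraries was -0.12 and -0.14 in controls, 0.34, -0.11 and 0.33 at 2 weeks in MHCII-low cells, and 0.11, 0.15 and 0.16 at 4 weeks. It was -0.20, -0.09 and 0.16 in MHCII-high cells at 2 weeks and -0.07, -0.21 and -0.04 at 4 weeks. MHCII-low replicate 2 at 2 weeks, with a rRNA share of 18.32%, lay with the controls, and replicates 1 and 3, at 3.42% and 12.71%, lay above. At 4 weeks MHCII-low replicate 2 had a share of 23.15% and a median like those of its 2 companions at 3.12% and 5.1%. In MHCII-high cells at 2 weeks replicate 3 had the largest share of its group, 26.25%, and the highest median. With the share as a covariate limma called 0 respiratory genes over both times, the median high-minus-low difference was -0.18, and 2.88% of all genes passed. Among the 9 libraries with a share above 15%, a restriction chosen after seeing the data that leaves 1 MHCII-low library at each time and assumes that it varies like the other groups, limma called 0, the median was -0.10 and 1.77% of all genes passed. In those libraries the 2-week median was 0.02, the 4-week median -0.20, and the medians against controls were 0.04 at 2 weeks and 0.34 at 4 weeks. In both fits Atp5b stayed below 0, at -0.48 (limma adjusted p of 0.0904) and -0.36 (limma adjusted p of 0.381), and so did Ndufv1, at -0.55 and -0.65 (limma adjusted p of 0.232 and 0.417).

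**Figure D5:**
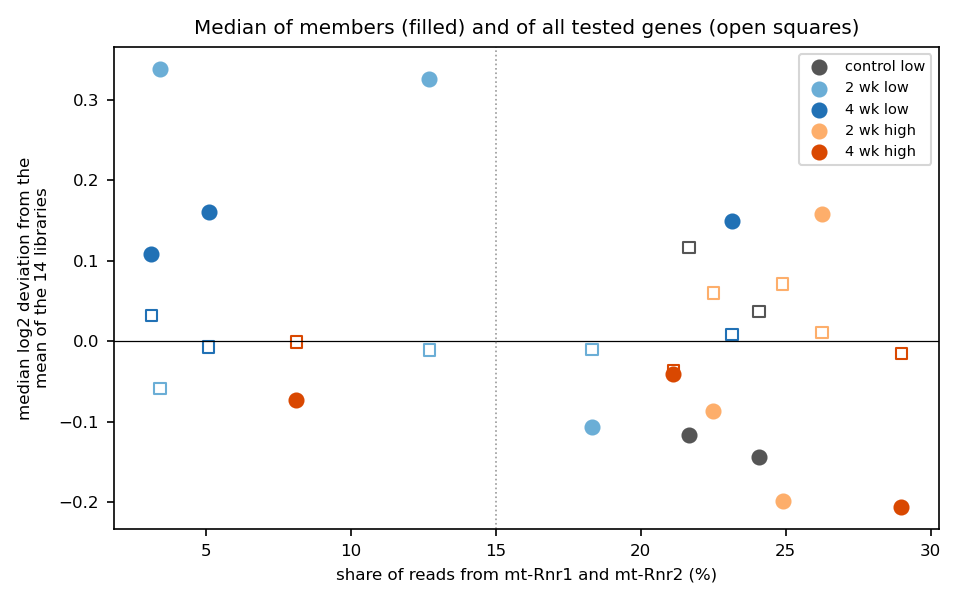
Median log2 deviation of the 89 respiratory genes (filled circles) and of all tested genes (open squares) in each of the 14 libraries, against the share of reads from mitochondrial rRNA. The dotted line marks 15%; the 5 libraries to its left include 4 of the 6 MHCII-low libraries after bleomycin.

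Between 2 and 4 weeks the respiratory genes showed no common direction. In MHCII-low cells limma called 0 of 89 (0.857% of all genes passed), with 0 at an unadjusted p under 0.05 (7.48% of all genes) and a median of -0.02. In MHCII-high cells limma called 0 (1.07% of all genes), with a median of -0.02. There 6 respiratory genes (6.74%) had an unadjusted p under 0.05, against 14% of all genes. On the recovered reads edgeR called 0 in either (0.794% and 0.644% of all genes). DESeq2 called 0 in MHCII-low cells (1.84%) and 2 in MHCII-high cells (3.67%), Cox6b2 and Atp5g1.

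Some subunits exist as a general form and a tissue-restricted form, and in these cells each restricted form was lower per kb than its general form. Cox6b2 and Cox7a1, at 82.8 and 81.3 normalized counts per kb, still lay above the median of 71.0 for all genes tested. Cox7b2 and Cox8c, known from testis, were listed at 0 in all 14 libraries. Ndufa4l2, a hypoxia-induced form, was listed at 0 in 12, Cox8b, a muscle form, in 9, and Cox4i2, known from lung and hypoxia, in 6, with 31.2 normalized counts in MHCII-high replicate 1 at 4 weeks and at most 8.0 elsewhere. These 5 did not pass the filter and were the untested members. Cox4i2 averaged 4.51 normalized counts per kb and its partner Cox4i1 717.

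The other 3 restricted forms were tested. Cox6a2, a heart and muscle form, had 26.1 and 20.7 normalized counts in controls, 4.4 to 50 in MHCII-low and 32.1 to 70.6 in MHCII-high cells after bleomycin, with a log2 difference of 1.37 ± 0.586 (limma adjusted p of 0.175). Its partner Cox6a1 was at 2314 per kb against 52.0. Cox7a1 was erratic: 18.3 to 46.3 in the 8 MHCII-low libraries, but 88.5, 0 and 64.3, then 0, 1.6 and 47.5 in MHCII-high libraries (-1.55 ± 1.03, limma adjusted p of 0.422). Cox7a2, its partner, had 77.0 to 288. Cox6b2, a testis form, had 34.0, 52.4 and 20 in MHCII-high cells at 2 weeks and 181, 127 and 128 at 4 weeks. Those groups did not overlap, and the log2 difference of 2.09 had a limma adjusted p of 0.0956 and a DESeq2 adjusted p of 0.0144.

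The 7 general forms had log2 differences below 0 between high and low, with a median of -0.40, and above 0 against controls at both times, with medians of 0.69 and 0.66. Cox4i1 was the 1 called. Cox8a, the second highest respiratory gene per kb at 2770, had -0.45 ± 0.187 (limma adjusted p of 0.159), and Cox6b1 -0.40 ± 0.211 (0.286 by limma). Cox7a2 had -0.35 ± 0.304 and Cox7b -0.05 ± 0.249. Ndufa4, the highest respiratory gene per kb, had 1146 and 1847 normalized counts in controls, 1582 to 3562 in MHCII-low and 1363 to 2503 in MHCII-high cells after bleomycin. These ranges overlapped throughout, with -0.15 ± 0.192.

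Subunit c, the rotating ring of ATP synthase, is encoded by Atp5g1, Atp5g2 and Atp5g3, whose mature proteins are the same and whose targeting sequences differ. Atp5g3 was the most abundant at 258 normalized counts per kb, with Atp5g1 at 39.1 and Atp5g2 at 19.0. Without division by exon length the 3 averaged 563, 192 and 31.8 normalized counts, and the exon lengths were 2181, 4912 and 1675 bases. Atp5g3 had -0.37 ± 0.183 between high and low (limma adjusted p of 0.249), with 573 and 573 normalized counts in controls and 366 to 718 elsewhere. Atp5g1 had 82.8 to 237 in 13 libraries and 949 in MHCII-high replicate 3 at 4 weeks. Its high-minus-low estimate of 0.36 ± 0.415 turned to -0.09 without that library. Atp5g2 had 0.8 to 54.7. Atp5g1 and Atp5g2 have near-identical copies.

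Genes that work with the respiratory complexes gave few calls, on lists chosen for their known roles. Of 13 subunits encoded in mitochondrial DNA, 7 were tested and limma called 0 over both times, with 0 at an unadjusted p under 0.05, and edgeR and DESeq2 also called 0. The other 6 were listed at 0 in every library, 5 of them with an annotated copy of 99.7% to 100% identity. Over both times the 7 had a median of 0.28, with all above 0, against -0.29 for the nuclear genes. This came from 4 weeks, where all 7 were above 0 with a median of 0.61, while at 2 weeks 3 were above 0 and the median was -0.06. Their libraries differ in mitochondrial rRNA share, and the part of that share in this result was not tested.

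Of 13 tricarboxylic acid cycle genes limma called 0, with 12 below 0, a median of -0.26 and 6 at an unadjusted p under 0.05. On the recovered reads edgeR and DESeq2 each called 2, both lower. Among 12 genes for electron carriers and ubiquinone synthesis Coq5, a methyltransferase of ubiquinone synthesis, was lower, with -0.66 ± 0.163 and a limma adjusted p of 0.0151. It had 1448 to 2108 normalized counts in MHCII-low cells after bleomycin and 698 to 1230 in MHCII-high cells, which did not overlap. Cycs, cytochrome c, was listed at 2.2 to 108 normalized counts. Near-identical copies were not searched for Cycs, so this level is uncertain. Of 8 genes for the ATPase inhibitor, adenine nucleotide carriers and uncoupling proteins, 2 were lower in limma and 0 higher. EdgeR called 3 lower, and DESeq2 called 3 lower and 1 higher, on the recovered reads. Slc25a4, an ADP/ATP carrier, fell by 0.55 on the log2 scale (limma adjusted p of 0.0275). Ucp3, an uncoupling protein, had -0.83 ± 0.137 and a limma adjusted p of 0.000416. Its normalized counts were 2327, 2459 and 2724 in MHCII-low against 1384, 1215 and 1397 in MHCII-high cells at 2 weeks, and 5362, 3151 and 3947 against 2987, 2193 and 2157 at 4 weeks. Unlike any of the 89 respiratory genes it was called at both times, with a limma adjusted p of 0.0109 and 0.0422. Ucp1, a low gene of the same list, went the other way without being called by limma, with 0 to 26.6 normalized counts in MHCII-low and 0 to 173 in MHCII-high cells after bleomycin (2.99 ± 1.09, limma adjusted p of 0.105). Limma called 0 of 29 tested assembly factors of complexes II to V (2 at an unadjusted p under 0.05), 0 of 7 further complex I assembly factors (1) and 0 of 12 regulators of mitochondrial biogenesis (0). In these 3 lists edgeR called 0, and DESeq2 called 1 of the first as higher.

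Markers of cell identity changed in the same comparison. Over both times limma called 11 of 18 resident alveolar macrophage markers lower in MHCII-high cells and 0 higher, with a median of -0.50, 10 of 17 monocyte-derived or interstitial macrophage markers higher and 0 lower, and 7 of 10 dendritic cell markers higher. Siglecf, reported above, is among the 11 resident markers called. Of B and T lymphocyte markers 6 of 11 tested were higher. Their summed level was 127 to 2452 normalized counts in MHCII-low libraries after bleomycin and 934 to 4233 in MHCII-high libraries. Cd209a, a dendritic cell marker, was at 0 in both MHCII-low groups after bleomycin. Of 12 alveolar epithelium markers 4 were higher and 1 lower, with sums of 15491 to 38799 in MHCII-low libraries after bleomycin and 15984 to 26426 in MHCII-high libraries. Of neutrophil markers limma called 0 of 6 tested (1 at an unadjusted p under 0.05) and of fibroblast and endothelium markers 0 of 11 (2), where DESeq2 called 0 and 1 and edgeR 0. The part of these cells in the differences of the respiratory genes was not tested.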

How the data were processed

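RNA-seq libraries from 14 samples in 5 groups were compared. The table holds normalized counts per gene, a signal that the authors deposited under a normalized heading, per the file headers. The submitters' processing notes name STAR, DESeq2 and mm10, without roles or versions. Per the labels' protocols, mRNA was purified with beads, amplified with the NuGen Ovation RNAseq V2 kit and made into Nextera XT libraries. No molecular identifiers are described. The authors' columns of exon length and GC percent were used as deposited, as were the coordinates. Of the 94 genes, 73 had a span identical to that in GENCODE M21 (GRCm38).

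Each column holds whole multiples of 1 step (0.3895 to 2.2374), which gave back whole reads. All values tested were whole within the rounding of 0.05, although in control replicate 1 that rounding is wide beside its small step. The shallowest library had 13879946 reads outside mitochondrial rRNA. Counting error is largest near the filter of 10 normalized counts.

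Log2 of the value plus 1 was fitted with limma 3.58.1 (R 4.3.3) with a mean-variance trend, 1 coefficient per group over all 14 libraries. Genes reaching 10 normalized counts in 2 or more libraries entered the fit (17390, with 89 of the 94), with Benjamini-Hochberg adjustment over all of them at 0.05. Differences on this scale understate those of low genes. In 8 comparisons, edgeR 4.0.16 and DESeq2 1.42.0 on the recovered reads, TMM scaling, a pseudocount of 5, no filter, removal of GC or length trends (lowess span 0.3), the mitochondrial rRNA share as a covariate, a replicate block, and each library left out were tried as alternatives. The limma step was also run on simulated counts, which held no shift shared by the genes of a library. That run therefore says nothing about such shifts in these data. Near-identical copies were searched with blastn 2.17.0.

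The members, gene lists and tests were chosen with earlier results of these data known. Genes were named by rule: called members (up to 6 per direction and comparison), in each complex the highest per kb and the smallest p over both times, all isoform and subunit c genes, and called genes of the other lists. A gene that this rule names is not reported here. Sdhc at 4 weeks, Atp5a1 at 2 weeks, Cycs, Ucp1, Siglecf, Itgax, and the genes that separated without being called were named after their values were seen.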

Additional observations from a re-analysis of the deposited data

How the results depend on the processing

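The number of respiratory genes called depended on the method. For MHCII-high against MHCII-low cells over both times limma called 5 (7.21% of all genes), and DESeq2 9, of which 2 were higher (12.2%). With the GC trend removed it was 16 (15.3%), and with the exon length trend removed 15 (13.7%). With the mitochondrial rRNA share as covariate it was 0 (2.88%), and with the replicate block 3 (6.94%). Leaving out 1 library gave 2 to 6, while 853 of 17135 to 1399 of 17231 genes were called. At 2 weeks, where limma called 0 (2.87% of all genes), it was 1 with TMM factors (2.94%), 1 with edgeR (2.48%) and 2 with DESeq2 (6.07%). With GC and length trends removed it was 15 and 11 (12% and 7.36%). On leaving out 1 library it was 0 to 2, while 203 of 17135 to 624 of 17222 genes were called. It was 2 without MHCII-low replicate 2 at 2 weeks and 1 without MHCII-low replicate 1 at 4 weeks. At 4 weeks limma called 1 (2.5% of all genes), and DESeq2 5, of which 2 were higher (5.24%). It was 2 with the GC trend removed (2.41%), 0 without the filter (1.07%) and 0 with the rRNA covariate (1.73%). On leaving out 1 library it was 0 to 1, while 266 of 17313 to 480 of 17231 genes were called. For MHCII-low cells at 2 weeks against controls limma called 0 (1.91% of all genes) and DESeq2 1 (3.82%). It was 4 with the GC trend removed (4.5%), 4 with the length trend removed (2.96%) and 1 with the replicate block (2.39%). On leaving out 1 library after bleomycin it was 0 to 1, while 208 of 17286 to 406 of 17222 genes were called. For MHCII-high cells at 4 against 2 weeks, where limma called 0 (1.07% of all genes), it was 2 with DESeq2 (3.67%). It was 1 with the GC trend removed (1.73%) and 1 with the length trend removed (0.601%). The cause was not tested.

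Same-numbered MHCII-high and MHCII-low libraries of the same time had deviations correlated between 0.009 and 0.107. For same-numbered libraries of different times, or of bleomycin and control groups, it was -0.057 to 0.054. These values do not settle whether the numbers pair the libraries. With the replicate block, which leaves the controls out of the comparison of high with low, Cox4i1 and Sdha had adjusted p of 0.0514 and 0.0544 in limma, and Cox6a1 at 2 weeks against controls was called (limma adjusted p of 0.0223).

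The median over the respiratory genes kept its sign in all 24 alternatives for high against low over both times (-0.52 to -0.10) and at 4 weeks, and for MHCII-low cells against controls at 2 weeks (0.04 to 0.73) and at 4 weeks (0.21 to 0.55). Some of the 24 could not change it. Leaving out a library of a group outside a comparison leaves that comparison's estimates as they were, as does the replicate block for high against low. At 2 weeks the high-against-low median changed sign in 1, to 0.02 in the libraries above 15%. Among named genes that were not called, the estimate over both times changed sign in those libraries for Cox6b2 (0.12), Cox7a2 (0.16), Cox8a (0.082), Cyc1 (0.10), Ndufa4 (0.02) and Ndufaf2 (0.004), with the rRNA covariate for Cox6b2 (0.23), and for Cox7a1 with edgeR (0.037) and DESeq2 (0.087). On leaving out 1 library it changed sign for Atp5g1 (range -0.093 to 0.661), Atp5g2 (-1.11 to 0.13), Cox7b (-0.242 to 0.067) and Ndufaf2 (-0.18 to 0.043). The called genes kept their sign in every alternative. Depth limits genes near the filter of 10 normalized counts most.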
